A study of Homo sapiens with 4 samples.

Results

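The genes of glycolysis and of the hypoxia response were followed in HCT116, a human cell line from a colorectal carcinoma, after knockdown of LAS1L, which acts in the nucleolus in the processing of ribosomal RNA precursors. The list held 37 genes: 2 glucose transporters, 17 enzymes of the path from glucose to lactate, 3 regulators of glycolytic flux and pyruvate use, 3 genes of the oxygen-sensing switch itself, and 12 further targets of the hypoxia-inducible factor HIF. They were found on the array by gene symbol, current or older, and each was represented by its brightest probe. Of the 37, 34 had a probe bright enough to test, among 10463 genes tested in all. The probes of PDK1 and EGLN3 were not well above background on any array, and CA9 had no annotated probe, so its expression is not analysed here.

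Each of the 4 arrays, Illumina HumanHT-12 v4 bead chips, held RNA from cells reverse-transfected with 40 nM of siRNA, with a labelled duration of 72 h. The control group was 2 arrays of cells given a control siRNA. The Las1L group was 1 array of Las1L siRNA #1 and 1 array of Las1L siRNA #2, taken as 2 replicates of LAS1L depletion. All cells were grown in high-glucose medium with 5% serum and under 5% CO2, and no label describes low oxygen. Nothing says that the control arrays came from separate cultures, so p-values measure the spread between these samples, which may be technical.

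Glycolysis splits glucose into pyruvate in the cytosol, and lactate dehydrogenase then reduces pyruvate to lactate, which regenerates the oxidised cofactor that the pathway needs. HIF is a transcription factor whose alpha subunit is hydroxylated by prolyl hydroxylases when oxygen is present and is then degraded through the VHL ubiquitin ligase, so HIF is controlled mainly at the level of protein stability. When oxygen is low it raises transcription of glucose transporters, glycolytic enzymes, angiogenic factors and mitophagy receptors, and many colorectal carcinoma lines run glycolysis strongly even in air.

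The sequences of the siRNAs that separate the groups are shown because every comparison below rests on them. They are given 5′ to 3′ without the deoxythymidine overhangs, each 19 bases long, as listed in the labels, which do not name the strand.
Control siRNA: gaucauacgugcgaucaga
Las1L siRNA #1: cugauacgcuguaagcucu
Las1L siRNA #2: cauuuauacccagagugga
The Las1L siRNAs are different sequences directed at the same gene, which lies on chromosome X.

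The deposited values had the same median, 14.9, and the same highest value, 37640.9, on each array, and so shared a common distribution. The near-equal counts of 17280 to 17284 probes above the background limit of 28.1 signal units follow from this. They do not measure how alike the samples were. LAS1L gave 770 and 718 signal units on the control arrays, 212 with siRNA #1 and 158 with siRNA #2. The labelled line is epithelial, and 6 of 8 epithelial markers were above the limit on all 4 arrays, while VIL1 and CDH17 were not well above background. Their summed signals were 20230 to 21502 with control siRNA and 20719 to 20814 with Las1L siRNA. Of the 6 tested, only CDH1 passed limma with an intensity trend (adjusted p = 0.0194). It gave 437 and 348 units on the controls and 524 and 527 on the Las1L arrays. Of 9 fibroblast, endothelial and leukocyte markers 0 were above the limit on all 4 arrays, and their summed signal was 173 to 219 with control siRNA and 184 to 192 with Las1L siRNA. In RNA from whole cultures, fewer cells of a type and less RNA per cell cannot be told apart.

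Taken over all 34 tested genes, the list moved in both directions. ALDOC, HK2, P4HA1, P4HA2 and ANGPTL4 rose, and SLC2A1, ADM, NDRG1 and ERO1A fell. These 9 of 34 genes, 26.5%, passed an adjusted p of 0.05 in limma with an intensity trend, where 22.1% of all 10463 tested genes passed, 11.3% as higher and 10.9% as lower. The share in the list was thus near that of genes in general. The median log2 fold change was 0.11 over the 34 genes and 0.00 over all tested genes. With siRNA #1 against the control mean the list's median was 0.10, and with siRNA #2 it was 0.07, while the second control lay 0.07 above the first. The verbs "rose" and "fell" are used for calls of this trend fit, in which the variance shared across genes depends on signal.

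Limma without the trend passed 2 of the 34, ALDOC as higher and NDRG1 as lower, where it passed 4.79% of all genes, 2.72% as higher and 2.06% as lower. At an unadjusted p under 0.05 that fit took in 8 of the 34, where it took in 28.6% of all genes. The calls depended on single arrays and on settings. No member passed the fit without the trend when any of the 4 arrays was left out, or when it was run over all probes in place of genes. In the trend fit, 1 of the 9 remained without Las1L siRNA #1 (NDRG1), 0 remained without Las1L siRNA #2, and 7 remained without control 1 (not P4HA1 or P4HA2) or without control 2 (not ADM or HK2). With a floor of 50 signal units in place of 16, ANGPTL4 and NDRG1 remained, and with no filter on dim probes 0 did. All 9 kept their direction in each of these. On both Las1L arrays the signal was above each control for 13 members and below each for 8. Together these are 61.8% of the list, where 59.7% of all tested genes were separated in this way, 30% upward and 29.8% downward.

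**Figure D1:**
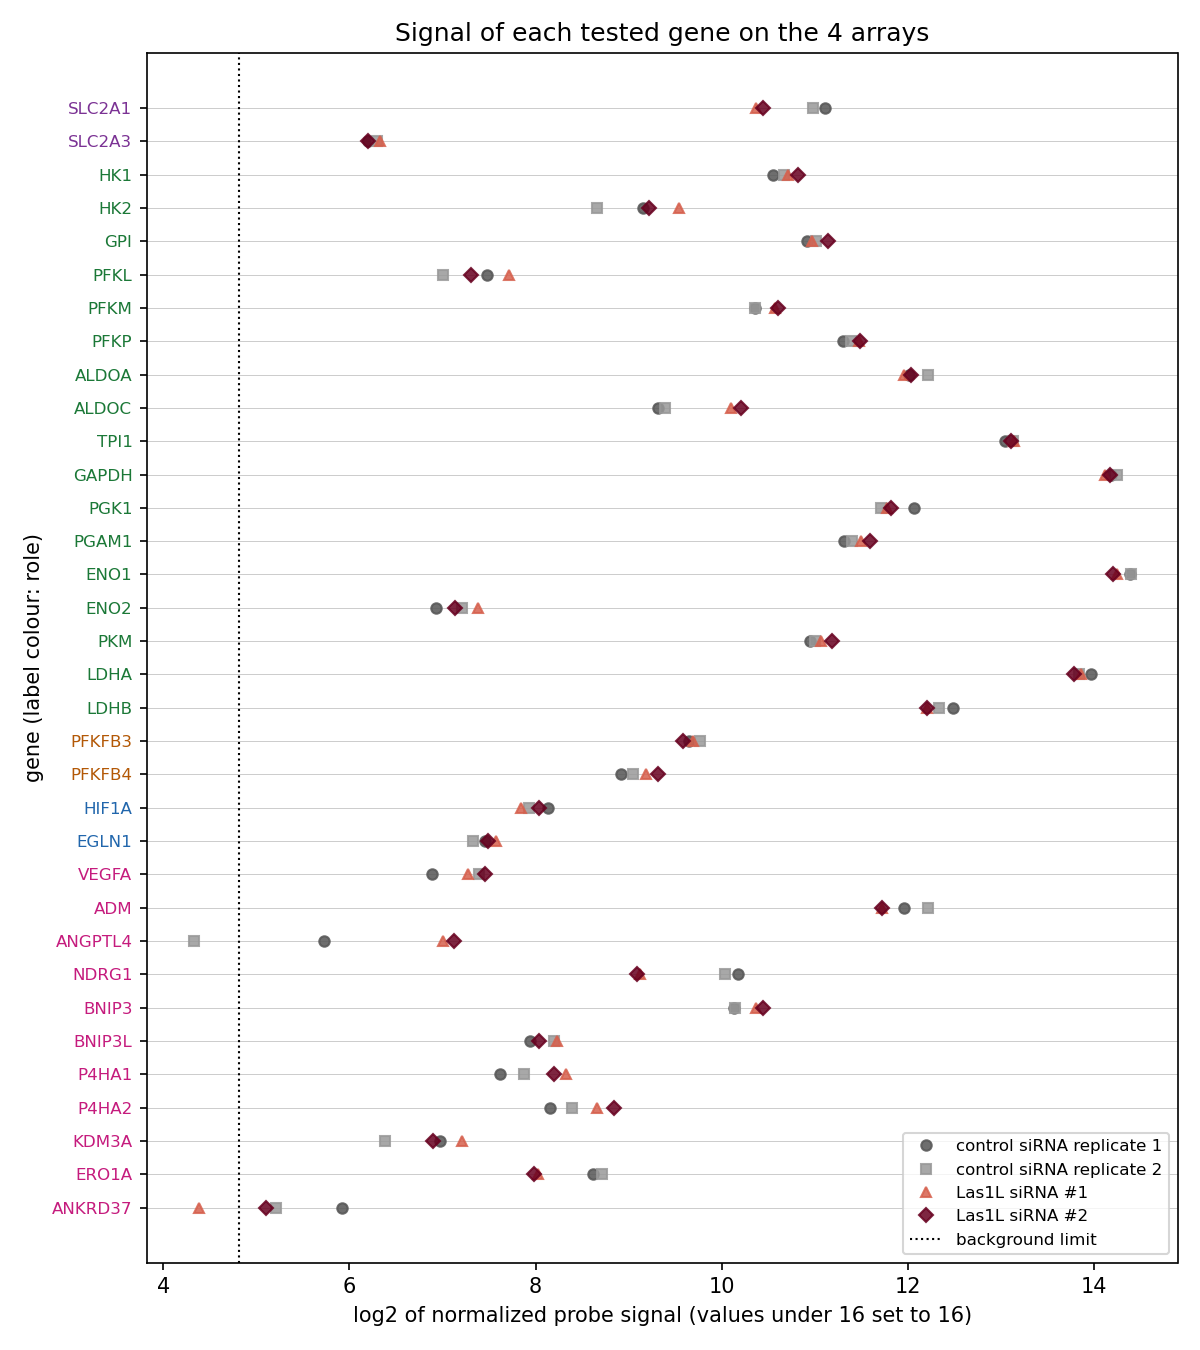
Normalized probe signal on a log2 axis for the 34 tested genes, in pathway order from glucose transport to other HIF targets, with 1 symbol for each array and the background limit as a dotted line. SLC2A1, NDRG1 and ERO1A are lower and ALDOC is higher on both Las1L arrays, and the second control array of ANGPTL4 and the siRNA #1 array of ANKRD37 lie left of the limit.

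Glucose enters cells through the GLUT transporters. SLC2A1, which encodes GLUT1, the basal transporter of most cells and a classical HIF target, gave 2217 and 2015 signal units on the control arrays, 1326 with siRNA #1 and 1392 with siRNA #2. Both Las1L arrays lay well below both controls. It fell by 0.64 on the log2 scale (SE 0.09, adjusted p = 7.4e-05 in limma with the trend), to 64.3% of control. In limma without the trend its adjusted p was 0.0568. SLC2A3, the high-affinity transporter GLUT3, gave 73.4 and 78.5 units on the controls, 80.5 with siRNA #1 and 73.6 with siRNA #2. Its groups overlapped, and its log2 difference was 0.02 with a 95% confidence interval of -0.47 to 0.51 in the trend fit. The near-identical paralog SLC2A14 may share this probe.

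Of the 17 glycolytic enzymes, by their brightest probes, 2 rose and 0 fell, 11.8% against the background of 22.1%, and the median log2 fold change was 0.14. The other 15 had log2 fold changes between -0.20 and 0.27. The upper part of the path, from hexokinase to triose phosphate isomerase, had 8 of 9 positive values and a median of 0.15. The lower part, from GAPDH to lactate dehydrogenase, had 3 of 8 positive values and a median of -0.07, and 0 of its genes passed either fit. The difference between these parts was not tested, and the signs depended on the probe rule. With the mean over probes PFKP (-0.41) and TPI1 (-0.17) in the upper part turned negative. PGK1 (0.15) in the lower part turned positive.

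Hexokinases trap glucose in the cell by phosphorylating it. HK2, the inducible form that binds mitochondria in many tumours, gave 569 and 403 units on the control arrays, 746 with siRNA #1 and 597 with siRNA #2. The Las1L arrays were the higher pair, but siRNA #2 exceeded the first control only slightly. HK2 rose by 0.48 (SE 0.14, adjusted p = 0.0228 in limma with the trend), 1.39-fold, and its adjusted p in limma without the trend was 0.246. Its dimmer second probe did not pass, with 157 and 133 units on the controls, 135 with siRNA #1 and 154 with siRNA #2, and with the mean over probes HK2, at 0.24, did not pass. Its log2 value was 0.73 without control replicate 1 and 0.23 without control replicate 2. HK1, the constitutive form, gave 1504 and 1631 units on the controls and 1678 and 1806 with siRNA #1 and #2, a log2 difference of 0.15 that did not pass.

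Glucose phosphate isomerase, encoded by GPI, gave 1928 and 2070 units on the controls and 2000 and 2254 on the Las1L arrays, and the groups overlapped. Phosphofructokinase commits the sugar to glycolysis, and its subunits come from 3 genes. PFKM, named for muscle, gave 1310 and 1311 units on the control arrays, 1517 with siRNA #1 and 1562 with siRNA #2. The controls were nearly equal and both Las1L arrays lay above them, with a log2 difference of 0.23 (trend fit of limma, adjusted p = 0.0805). PFKP, named for platelets, had a log2 difference of 0.14 and PFKL, named for liver, 0.27, and neither passed by its brightest probe. PFKP has a dim second probe at 35.9 and 33.5 units on the controls and 20 and 12 on the Las1L arrays, under the background limit there. With the mean over its probes the value of PFKP turned to -0.41 and passed as lower (trend fit of limma, adjusted p = 0.0388). The controls of PFKL were 178 and 128 units, a gap about as wide as that between the Las1L arrays at 211 and 158.

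Aldolase splits the phosphorylated hexose into trioses and is encoded by several genes. ALDOC, the aldolase most abundant in brain and a HIF target in other cells, gave 636 and 673 units on the control arrays, 1096 with siRNA #1 and 1184 with siRNA #2. The groups were far apart beside the spread within each. ALDOC rose by 0.80 on the log2 scale, 1.74-fold, with an adjusted p of 1.7e-05 in limma with the trend (SE 0.10) and 0.0418 without it (SE 0.11). ALDOA, the form of muscle and most other tissues, gave 4120 and 4761 units on the controls and 3974 and 4187 on the Las1L arrays, with overlap and a log2 difference of -0.12 that did not pass. Its second bright probe gave -0.14. The difference between the isoforms was not tested.

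From triose phosphate to lactate no gene passed either fit by its brightest probe. TPI1, which interconverts the trioses, had a log2 difference of 0.04 by its brightest probe. GAPDH, the triose phosphate dehydrogenase often used as a reference gene, gave 18526 and 19365 units on the control arrays, 17712 with siRNA #1 and 18470 with siRNA #2, a log2 difference of -0.07 with a 95% confidence interval of -0.24 to 0.11. The Las1L arrays were the lower pair by a margin smaller than the gap between the controls. PGK1, which makes ATP from bisphosphoglycerate, gave 4278 and 3348 units on the controls and 3515 and 3599 on the Las1L arrays, so the controls enclosed the Las1L values. PGAM1, the phosphoglycerate mutase, gave 2549 and 2694 units with control siRNA and 2882 and 3087 with Las1L siRNA, a log2 difference of 0.19 that did not pass.

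The enolases dehydrate phosphoglycerate. ENO1, the ubiquitous form, gave 21338 and 21511 units on the controls, 19365 with siRNA #1 and 18830 with siRNA #2, lower on both Las1L arrays by a log2 difference of -0.17 that did not pass. ENO2, the neuronal form, gave 122 and 148 units on the controls and 166 and 141 on the Las1L arrays, and the groups overlapped. PKM, the pyruvate kinase, had a log2 difference of 0.15 with both Las1L arrays above both controls. The lactate dehydrogenase subunits LDHA and LDHB had log2 differences of -0.08 and -0.20, and neither passed (trend fit of limma, adjusted p = 0.576 and 0.101). LDHB gave 5716 and 5177 units on the control arrays, 4736 with siRNA #1 and 4713 with siRNA #2. Processed pseudogenes that are near-identical to GAPDH, ENO1, LDHA, TPI1, PGK1, PKM and ALDOA may share these probes, so those values are uncertain.

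**Figure D2:**
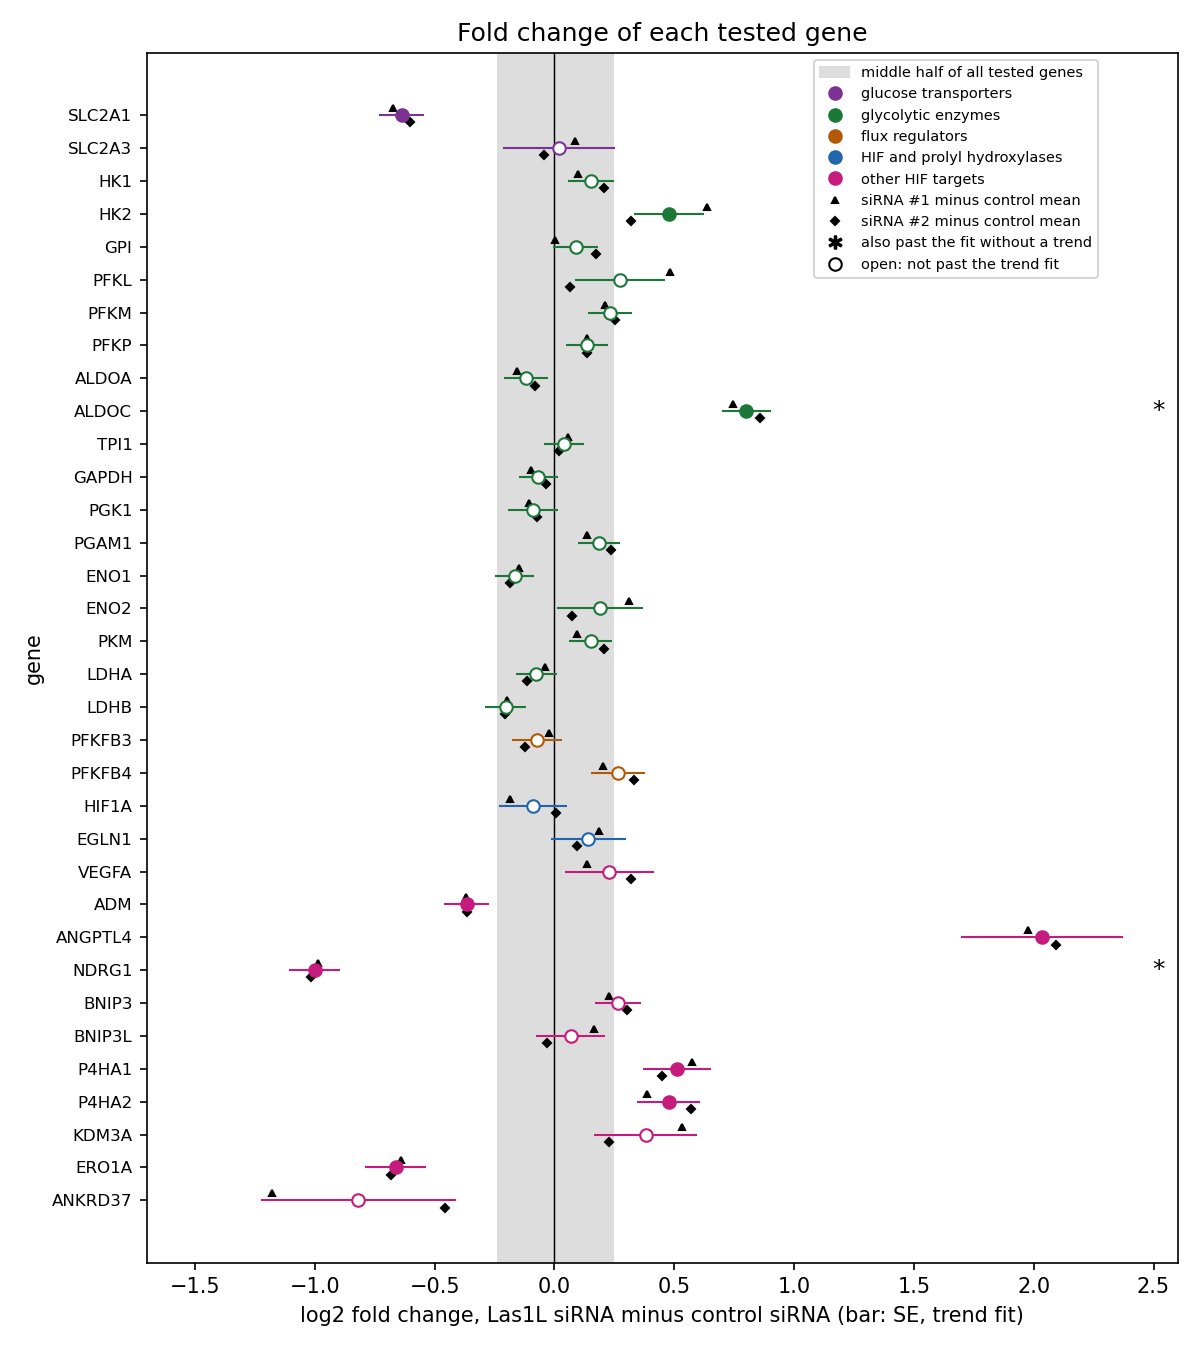
Log2 fold change of Las1L siRNA against control siRNA for the 34 tested genes, with the SE of the trend fit as bars, filled symbols for genes past it, small symbols for each siRNA against the control mean, and the interquartile range of all tested genes in grey. Most glycolytic enzymes lie inside the grey band, and the filled symbols are HK2, ALDOC, ANGPTL4, P4HA1 and P4HA2 on the right and SLC2A1, ADM, NDRG1 and ERO1A on the left.

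The flux regulators were measured by 2 genes. PFKFB3 and PFKFB4 are bifunctional enzymes that set the level of the fructose bisphosphate that activates phosphofructokinase, and both are known HIF targets. PFKFB4 gave 484 and 529 units on the control arrays, 582 with siRNA #1 and 636 with siRNA #2, higher on both Las1L arrays with a log2 difference of 0.27 and an adjusted p of 0.1 in limma with the trend. PFKFB3 gave 803 and 873 units on the controls and 824 and 769 on the Las1L arrays, and the groups overlapped. PDK1, the kinase that shuts pyruvate dehydrogenase, gave values from -19.1 to -1.4 units and has no measurable level here.

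Neither tested gene of the oxygen-sensing switch passed. HIF1A, the oxygen-regulated alpha subunit, gave 281 and 244 units on the control arrays, 230.1 with siRNA #1 and 263 with siRNA #2. The groups overlapped, and the log2 difference was -0.09 with a 95% confidence interval of -0.39 to 0.21. Its other tested probes gave -0.29 and -0.46, and neither passed. EGLN1, the main prolyl hydroxylase acting on HIF alpha subunits, gave 175 and 160.4 units on the controls and 191 and 179 on the Las1L arrays, a log2 difference of 0.14 that did not pass. HIF1A protein was not measured.

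Of the 11 tested genes among the other HIF targets 3 rose and 3 fell, 54.5% against the background of 22.1%, with a median log2 fold change of 0.23. They fall into secreted factors, mitophagy receptors, enzymes of protein maturation and other intracellular proteins. NDRG1, a stress-responsive cytoplasmic protein long used as a marker of hypoxia, gave 1158 and 1046 units on the control arrays, 556 with siRNA #1 and 544 with siRNA #2. The siRNAs gave nearly the same value, far under both controls. NDRG1 fell by 1.00 on the log2 scale, with an adjusted p of 1.6e-06 in limma with the trend (SE 0.10) and 0.0323 without it (SE 0.11).

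Among the secreted factors, ADM, the vasodilator peptide adrenomedullin, gave 3976 and 4740 units on the controls, 3366 with siRNA #1 and 3369 with siRNA #2. It fell by 0.37 (SE 0.09, adjusted p = 0.00849 in limma with the trend), to 77.6% of control, and its adjusted p without the trend was 0.166. Without control replicate 2 its value was -0.24. ANGPTL4, an inhibitor of lipoprotein lipase induced by hypoxia and by PPAR factors, gave 52.8 and 20.1 units on the control arrays, 128 with siRNA #1 and 139 with siRNA #2. Both Las1L arrays were clearly higher, but only 1 of the control arrays was above the background limit. Of the 3 probes of ANGPTL4 only this 1 was tested. Another gave 11.7 and 15.3 units with control siRNA and 16.3 and 28.9 with Las1L siRNA, and the last was negative on every array. ANGPTL4 rose by 2.04 (SE 0.34, adjusted p = 0.000254 in limma with the trend), and without the trend its adjusted p was 0.0843. The size depended on the dim control: the log2 rise was 2.73 without control replicate 1, 1.34 without control replicate 2 and 1.38 with a floor of 50. VEGFA, the angiogenic growth factor, gave 118 and 168 units on the controls and 155 and 176 on the Las1L arrays, with overlap and no call.

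The enzymes of protein maturation moved apart. P4HA1, a catalytic subunit of the prolyl hydroxylase that matures collagen, gave 197 and 235 units on the control arrays, 320.4 with siRNA #1 and 294 with siRNA #2, and rose by 0.51 (SE 0.14, adjusted p = 0.0145 in limma with the trend). P4HA2, the alternative catalytic subunit, gave 284 and 337 units on the controls, 404 with siRNA #1 and 459 with siRNA #2, and rose by 0.48 (SE 0.13, adjusted p = 0.0131). For both genes the Las1L arrays lay above the controls, and neither gene passed without the trend (adjusted p = 0.109 and 0.127 in limma). With the mean over its probes P4HA2 did not pass in the trend fit either. ERO1A, the oxidase that forms disulfide bonds in the endoplasmic reticulum, went the other way. It gave 394 and 420.2 units on the controls, 261 with siRNA #1 and 253 with siRNA #2, and fell by 0.66 (SE 0.13, adjusted p = 0.000915 in limma with the trend), to 63.2% of control. Without the trend its adjusted p was 0.0508.

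The mitophagy receptors did not pass with the settings used throughout. BNIP3 gave 1122 and 1130 units on the control arrays, 1320.1 with siRNA #1 and 1388 with siRNA #2. Both Las1L arrays were above controls that nearly coincided, with a log2 difference of 0.27 and an adjusted p of 0.0521 in limma with the trend. BNIP3 lay at the edge of the threshold, and passed with genes above background on all 4 arrays (adjusted p = 0.0436), with the mean over probes (0.0484) and with the replicate block (0.0385). BNIP3L, its homologue, gave 245 and 293 units on the controls and 300 and 262 on the Las1L arrays, and the groups overlapped. KDM3A, a histone demethylase, gave 125 and 83.3 units on the controls and 148 and 120 on the Las1L arrays. Its groups overlapped, and its log2 difference of 0.38 was smaller in size than the -0.59 from its first control to its second. ANKRD37, an ankyrin-repeat protein induced by HIF, gave 60.6 and 37.0 units with control siRNA and 20.9 and 34.5 with Las1L siRNA, where siRNA #1 was under the background limit. Its log2 difference of -0.82 did not pass (trend fit of limma, adjusted p = 0.163).

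The siRNAs were compared directly in a limma fit of 3 groups, in which the spread of each siRNA was taken from the control pair. Of the 34 genes 0 passed, where 0% of all genes did, and 0 had an unadjusted p under 0.05, where 4.46% of all genes did, 2.17% higher and 2.29% lower with siRNA #2. The largest difference was 0.72 for ANKRD37, higher with siRNA #2, which also lay under the background limit with siRNA #1. With 1 array for each siRNA this does not show that they act alike. For the 9 called genes the values of siRNA #1 and siRNA #2 against the control mean were -0.67 and -0.60 for SLC2A1, 0.64 and 0.32 for HK2, and 0.74 and 0.86 for ALDOC. They were -0.37 and -0.37 for ADM, 1.98 and 2.09 for ANGPTL4, and -0.98 and -1.02 for NDRG1. They were 0.57 and 0.45 for P4HA1, 0.39 and 0.57 for P4HA2, and -0.64 and -0.68 for ERO1A. These values share the control arrays.

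The array holds 65 probes for the list, of which 52 were tested, and 14 genes had more than 1 tested probe. In 8 of the 14 all tested probes had the same sign, and in 6 (HK2, PFKP, TPI1, PGK1, PKM and PFKFB3) they did not. TPI1 shows the disagreement in bright probes. Its brightest probe gave 8456 and 8940 units on the controls and 9041 and 8822 on the Las1L arrays, while the second gave 5289 and 5028 on the controls and 3655 and 4314 on the Las1L arrays. The second probe was lower on both Las1L arrays, with a log2 difference of -0.38 and an adjusted p of 0.0136 in the trend fit over all probes. PGK1 disagreed the other way, with its second probe at 752 and 692 units on the controls and 946 and 957 on the Las1L arrays, a log2 difference of 0.40 (adjusted p = 0.0152 in that limma fit). For PGAM1 the second probe, at 0.30, passed where the brightest, at 0.19, did not. The probes of GAPDH lay at -0.07, -0.20 and -0.11, and 0 of them passed. Which transcripts each probe binds was not tested.

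**Figure D3:**
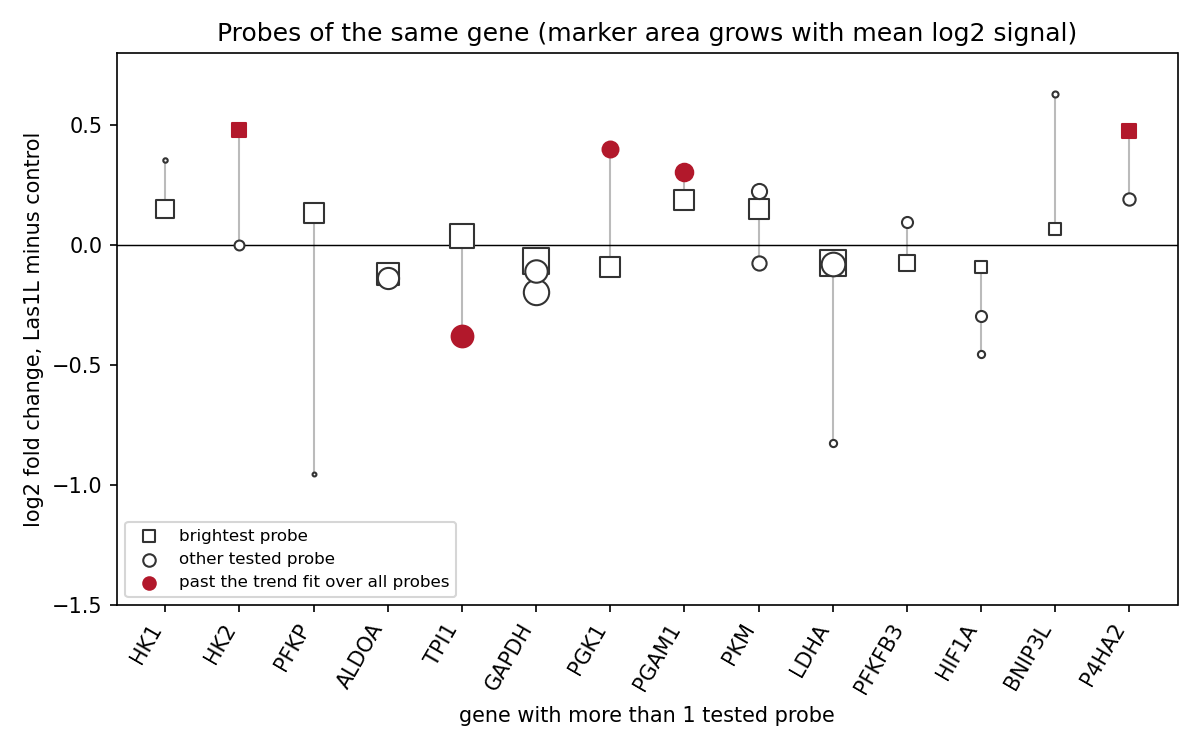
Log2 fold change of every tested probe for the 14 genes with more than 1, with squares for the brightest probe, circles for the others, area growing with mean log2 signal, and filled symbols for probes past the trend fit over all probes. TPI1 and PGK1 each have a filled circle away from an open square near 0, and PFKP and LDHA have a dim probe far below the rest.

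Related genes outside the list were read from lists of glycolysis, pyruvate, pentose phosphate and HIF genes. Each tested gene was represented by its brightest tested probe, and agreement with other probes of the same gene was not examined. Of 72 tested genes in these lists 4 were above the background limit in only 1 group and so entered the test through the group where they were high. Of the other 68, 13 rose and 3 fell, 23.5%, where 22.1% of all genes above the limit in both groups passed. Of the 10 tested other glycolysis and lactate genes 9 were above the limit in both groups. Of these 9, 3 rose and 0 fell, 33.3% against 22.1% of all genes above the limit in both groups. HKDC1, a hexokinase family gene, gave 13.2 and 12.2 units with control siRNA, under the limit, and 30.0 and 37.1 with Las1L siRNA. It was at least 1.19-fold higher, and it did not pass the trend fit. SLC2A6, a hexose transporter of lysosomal membranes, gave 308 and 404 units on the control arrays, 679 with siRNA #1 and 690.2 with siRNA #2, and rose by 0.96. TIGAR, a p53-induced phosphatase that lowers the activator of phosphofructokinase, gave 394 and 357 units on the controls and 639 and 651 on the Las1L arrays. TIGAR rose by 0.78, and it also passed limma without the trend (adjusted p = 0.042). ENO3, the muscle enolase, rose by 0.59. The lactate exporter SLC16A3 is not analysed here.

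Of 11 tested genes of the pyruvate dehydrogenase complex, its kinases and pyruvate import 1 rose, PDHA1, a catalytic subunit, by 0.37. Of 13 tested pentose phosphate and glycogen genes 1 rose, PGM1, which links glucose phosphates to glycogen, by 0.47. Both shares were under the background.

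Of 13 tested components of the HIF pathway 2 rose and 3 fell, 38.5% against the background of 22.1%. HIF1AN, the asparaginyl hydroxylase that blocks coactivator binding by HIF alpha subunits, gave 321 and 334 units on the control arrays, 145 with siRNA #1 and 141 with siRNA #2. Each pair was tight and the groups were far apart. HIF1AN fell by 1.19, to 43.7% of control, with an adjusted p of 8.2e-06 in limma with the trend (SE 0.14) and 0.0267 without it (SE 0.10). CUL2, the scaffold of the VHL ubiquitin ligase, gave 1210.5 and 1211 units on the controls and 893 and 892 on the Las1L arrays, and fell by 0.44. SIAH1, a ubiquitin ligase that targets prolyl hydroxylases, fell by 0.34. ELOB, an adaptor of the VHL ligase, rose by 0.35, and ARNT2, a partner of HIF alpha subunits, rose by 1.02 from 32.0 and 58.3 units to 95.4 and 80.3. VHL itself and EPAS1, which encodes the HIF alpha subunit HIF2A, had log2 differences of 0.07 and 0.03 and did not pass. The probe of ARNT was not well above background on any array.

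Of 25 tested further HIF targets 3 (CCNG2, IGFBP3 and MXI1) were above the limit in only 1 group, so that entering the test required a difference, and they are described by bounds. Of the other 22, 6 rose and 0 fell, 27.3% against 22.1% of all genes above the limit in both groups. CCNG2, an unusual cyclin tied to cell-cycle arrest, gave 19.7 and 6.9 units with control siRNA, under the background limit, and 119.5 and 90.8 with Las1L siRNA. It was at least 3.71-fold higher, as set against the limit. TMEM45A, a membrane protein, gave 54.9 and 59.7 units on the controls and 129 and 104 on the Las1L arrays, a rise of 1.02. IGFBP3, an insulin-like growth factor binding protein, was at least 1.52-fold higher, with both controls under the limit. WSB1, an adaptor of a ubiquitin ligase, rose by 0.55, and DDIT4, an inhibitor of mTOR complex signalling, rose by 0.42. MXI1, a repressor that opposes MYC, gave 66.3 and 68.5 units on the controls and 15.0 and 9.6 on the Las1L arrays, under the limit. It was at least 2.4-fold lower.

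**Figure D4:**
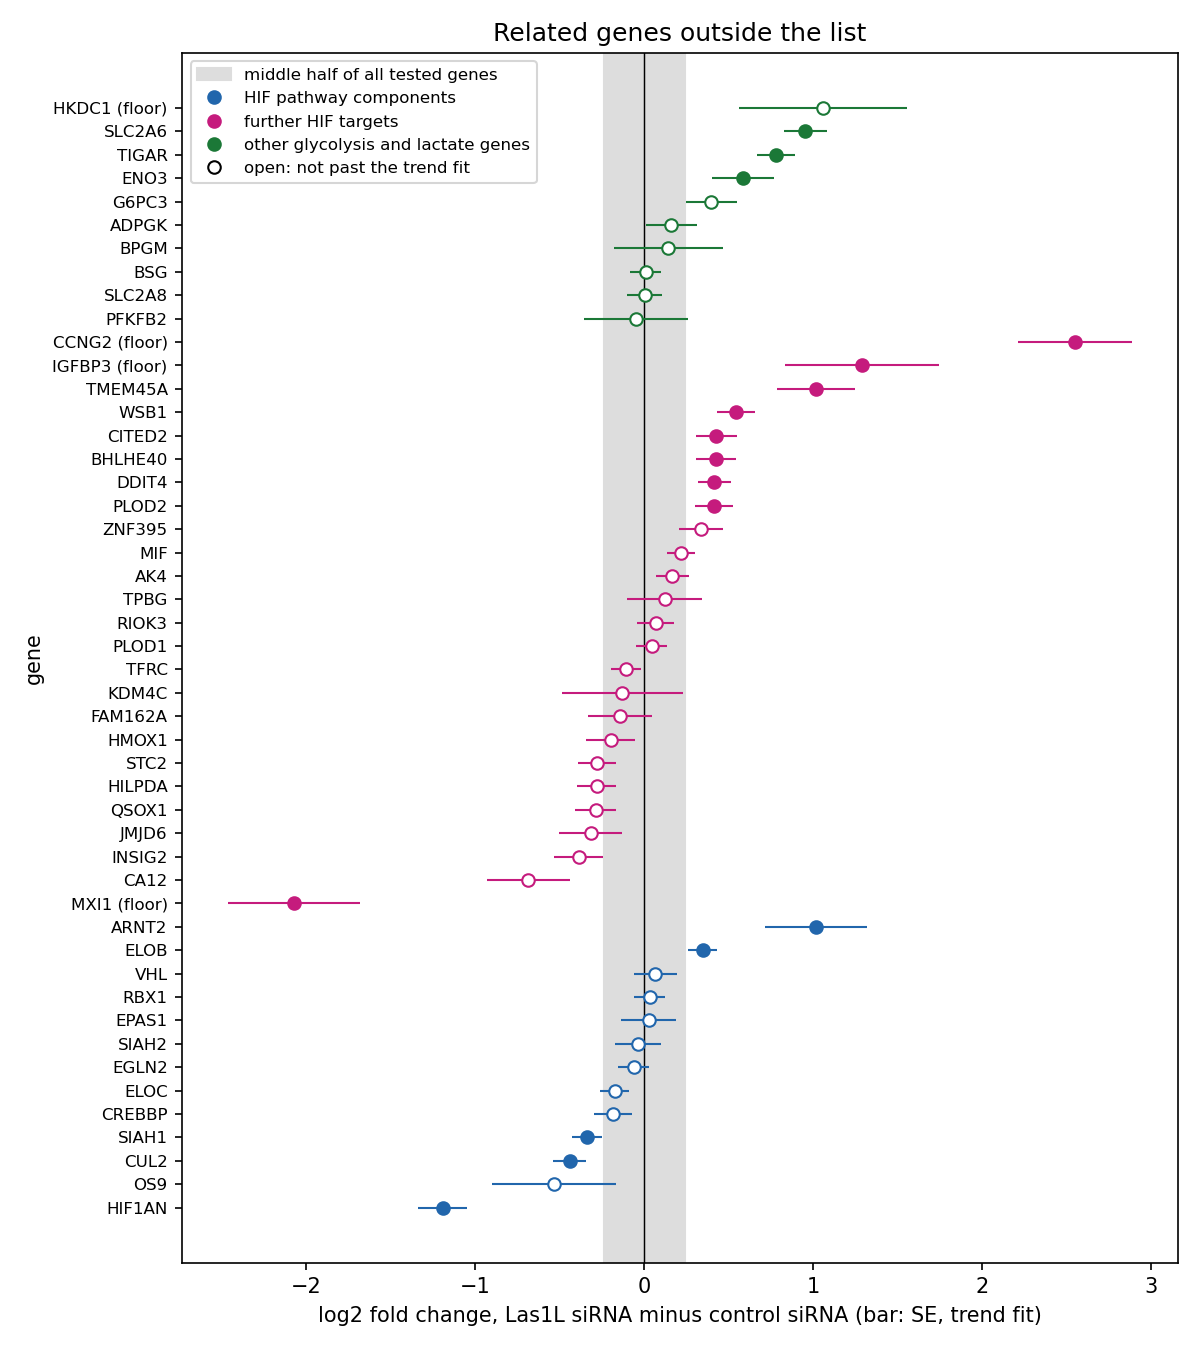
Log2 fold change with SE of the trend fit for the tested genes of 3 related lists, with filled symbols for genes past that fit, the interquartile range of all tested genes in grey, and "floor" beside genes with a value under 16 units, whose fold change is bounded. HIF1AN and MXI1 lie far to the left of their lists and CCNG2 far to the right, while VHL and EPAS1 lie near 0.

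HIF binds a short core that reads ACGTG or GCGTG. Promoters from RefSeq (GRCh38.p14), 250 bases before to 50 after the gene start, were read for the 22 members with exactly 1 entry. The core ACGTG, on either strand, was found in 12 of the 22, 54.5%, and in 21.4% of all 35116 promoters. The core GCGTG was found in 11 of the 22, 50%, and in 36.5% of all promoters. Unlike the members, the set of all promoters was not limited to genes with 1 entry. In CACGTG the first core is present on both strands, and its overlapping matches were counted separately. Many members were put on this list as HIF targets, so a higher share of cores is no independent finding.

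Among the called genes with an entry, ACGTG was present in 3 of 4 that rose and 1 of 3 that fell, and GCGTG in 1 of 4 and 3 of 3. Of 13 members not past the fit 7 had ACGTG and 7 had GCGTG, 53.8% each, where 21.4% and 36.5% of all promoters did. Groups of 3 and 4 genes are too small to tie a core to a direction, and no such link was tested. Promoters of 2 genes that fell and 2 that rose are shown so that the cores can be seen beside opposite changes, with both cores, on either strand, in capitals. Each of these has a core, while P4HA2, which also rose and is not shown, has 0 ACGTG and 0 GCGTG. The windows are chr1:42958819-42959118 (minus strand), chr14:52695509-52695808 (minus strand), chr17:28576846-28577145 (minus strand) and chr19:8363905-8364204 (plus strand), each written 5′ to 3′ on the strand of the gene.
SLC2A1: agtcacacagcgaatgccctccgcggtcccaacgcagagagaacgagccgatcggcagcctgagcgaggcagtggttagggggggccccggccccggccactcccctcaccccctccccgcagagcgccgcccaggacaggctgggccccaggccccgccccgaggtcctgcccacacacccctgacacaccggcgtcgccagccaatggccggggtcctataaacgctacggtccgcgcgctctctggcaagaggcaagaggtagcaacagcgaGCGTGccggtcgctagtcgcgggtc
ERO1A: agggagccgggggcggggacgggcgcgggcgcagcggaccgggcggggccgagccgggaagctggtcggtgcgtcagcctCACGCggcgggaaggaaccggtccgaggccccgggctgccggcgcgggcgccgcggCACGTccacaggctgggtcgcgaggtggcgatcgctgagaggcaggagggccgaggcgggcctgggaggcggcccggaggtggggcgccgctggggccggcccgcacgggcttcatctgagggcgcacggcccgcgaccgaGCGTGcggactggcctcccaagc
ALDOC: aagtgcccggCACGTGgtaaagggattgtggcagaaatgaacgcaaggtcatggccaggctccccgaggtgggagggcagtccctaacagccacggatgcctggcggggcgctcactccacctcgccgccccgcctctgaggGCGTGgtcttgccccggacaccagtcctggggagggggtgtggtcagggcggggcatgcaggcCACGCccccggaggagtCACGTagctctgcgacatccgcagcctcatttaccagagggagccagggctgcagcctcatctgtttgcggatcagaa
ANGPTL4: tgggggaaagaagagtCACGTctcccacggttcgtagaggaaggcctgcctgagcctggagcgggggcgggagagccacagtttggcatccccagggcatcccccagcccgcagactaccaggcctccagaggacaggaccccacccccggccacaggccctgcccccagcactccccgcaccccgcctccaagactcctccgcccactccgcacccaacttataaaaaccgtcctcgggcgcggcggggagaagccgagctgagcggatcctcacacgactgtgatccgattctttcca
SLC2A1, which fell, has 1 GCGTG and 0 ACGTG in this window, and ERO1A, which also fell, has 2 GCGTG and 1 ACGTG. ALDOC, which rose, has 3 matches to ACGTG and 2 to GCGTG, and ANGPTL4, which also rose, has 1 ACGTG and 0 GCGTG. A match is a description of these letters only, and binding of HIF was not measured.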

How the data were processed

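The deposited value table holds normalized probe intensity on a linear scale for 47323 probes. GenomeStudio is the tool named by the submitters' processing notes, with no version or options given there. Of the deposited intensity values 26.9% lie below 0, which background subtraction can give, and the median is 14.9 on each array. The highest value, 37640.9, is also the same on each array. With such a common distribution, a change shared by all genes could not be seen. Genes were not centred. A table of non-normalized signals was not used, because the names of its 8 columns match no sample's labels.

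The log2 of each value was taken above a floor of 16. The background limit, 28.1 units, is the one-sided 0.05 point of noise whose size was estimated from the negative values. Probes above it on at least 2 arrays were tested (17689). Probe names came from the 2016 platform annotation, updated through RefSeq (GRCh38.p14): 30113 probes had 1 symbol, 8 had several and 17202 had none. The brightest tested probe stood for a gene. Limma 3.58.1 (R 4.3.3) was fitted over 10463 genes, two-sided, with Benjamini-Hochberg adjustment, without and with an intensity trend. Prior degrees of freedom were 16.9 (trend) and 2.43 (no trend), beside 2 residual ones. Fold changes of values at the floor are bounded: "at least" sets the bright group against the higher of the dim value and the lowest signal above the limit. The fits were tested on simulated data in which the variance did not depend on signal, so the intensity trend itself was not tested there. The number of arrays limits the precision.

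The members, lists and tests were chosen with earlier results of these data known. All members were named. Of the related lists, up to 5 genes past the trend fit with the largest change were named, with VHL, ARNT, EPAS1, HIF1AN, TIGAR, SLC16A3 and DDIT4. HKDC1 was named because it was above the limit in only 1 group. Alternatives changed the floor, offset, normalization, filter, probe rule, threshold and arrays, and added the number in the titles as a block, where #1 and #2 of Las1L name siRNAs.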

Additional observations from a re-analysis of the deposited data

How the results depend on the processing

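The 9 members past the trend fit stayed 9 above background on all 4 arrays, with cyclic loess, with the mean over probes, with an offset of 64 and over all probes (an alternative chosen after seeing the data), and became 12 at an adjusted p under 0.1. Of the same 9, 8 remained above background on all 4 arrays, where ANGPTL4 was not tested, and 7 with the mean over probes. The number fell to 2 with a floor of 50, 2 with no trend and 0 with no filter on dim probes, and ranged from 0 to 8 without 1 array. Without the trend the 2 members became 4 above background on all 4 arrays, 5 at 0.1, 8 with the offset and 9 with the trend, and 0 with no filter, over all probes and without any 1 array (0 to 0). The number in the titles as a replicate block gave 10 members with the trend and 0 without it. The numbers of the Las1L arrays name siRNAs, so this block pairs nothing in the design. Over all genes the count without the trend was 501, and it became 0 over all probes, 14 unfiltered, 1225 above background on all 4 arrays, 2003 with the offset and 0 without 1 array. The trend fit's 2314 genes turned into 253 at the floor of 50, 0 unfiltered and 67 to 1790 without 1 array. The cause was not tested, beyond fewer samples where an array was left out. The median of 0.112 became 0.0776 with no filter and 0.0431 to 0.0968 without 1 array.

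No called member changed direction in any setting that tested it. With the mean over probes the log2 differences became 0.011 for PFKFB3, 0.15 for PGK1 and -0.17 for TPI1, which did not pass, and -0.41 for PFKP, which passed as lower. Without 1 array they ranged from -0.062 to 0.20 for BNIP3L, -0.19 to 0.011 for HIF1A, -0.27 to 0.087 for PGK1, -0.045 to 0.085 for SLC2A3, -0.0015 to 0.079 for TPI1 and -0.027 to 0.49 for VEGFA. The direct comparison of the siRNAs passed 0 members in all 6 settings, and over all genes 0 in 4 of them, 3 with the offset and 906 of 20024 unfiltered. The values of ANKRD37 and the control values of ANGPTL4 lie near the background limit, so the sizes of their fold changes are uncertain.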
